A study of Rattus norvegicus with 12 samples.

Results

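Genes for the folding and secretion of proteins in the endoplasmic reticulum (ER) were examined in left ventricles of rats that had received an adeno-associated virus (AAV) vector for VEGF-B or for a control protein. The set was a list of gene symbols, with no threshold on the measurements, but it was chosen with earlier results of these data known. It held 40 genes in 5 roles: chaperones and cochaperones, disulfide isomerases, the translocon with the signal peptidase, ER-associated degradation, and stress transcription factors with their feedback. On the bead array 35 of them had a named probe, of 13336 genes with one in all, and the brighter probe was taken where a gene had more than 1. Of these 35 genes 28 were bright enough to be tested, among 10281 tested probes of 22517 in all. The genes Spcs1, Spcs2, Spcs3, Derl1 and Derl2 had no named probe. The probes of Hyou1, Derl3, Edem1 and Trib3 were not above background on any of the 12 arrays, and those of Atf6, Sec61a1 and Sec61g were above it on 2 arrays each, so that these 7 genes were not tested.

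The Wistar rats had been injected through the tail vein with AAV-VEGF-B, which encodes human VEGF-B, or with AAV-HSA, which encodes human serum albumin. The control vector thus also makes a secreted protein, and all 12 rats carried an AAV transgene. Each vector group held 6 hearts, 3 of females after 2 months of expression and 3 of males after 4 months. In males the vector had been given a second time, so sex, duration and the repeat cannot be told apart, and the pair of strata is called females and males below. Which promoter drives the vectors, and how old the rats were, is not given in the sources used here. Total RNA of the whole ventricular wall was hybridised, 1 array per heart. In such bulk samples fewer cells of a type and less RNA per cell cannot be told apart. All 15 cardiomyocyte markers with a probe, Myh6 and Tnnt2 among them, were above background on all 12 arrays, with 8827 to 9800 probes above background per array. The signals were corrected for background, quantile normalized and put on a log2 scale, and the vectors were compared with limma over all tested probes with adjustment by Benjamini-Hochberg. A gene is called higher or lower at an adjusted p under 0.05, and every change below is a difference of log2 signals, AAV-VEGF-B minus AAV-HSA. Each gene is set only against itself, since signals of different probes are not on a common scale.

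Secreted and membrane proteins enter the ER through the Sec61 translocon, lose their signal peptide to the signal peptidase, and are folded there by chaperones while disulfide isomerases join their cysteines. Proteins that fail to fold are carried back to the cytosol and degraded. When folding falls behind its load, the sensors IRE1, ATF6 and PERK start the unfolded protein response, in which the factors XBP1 and ATF6 raise chaperone genes and ATF4 raises DDIT3 (CHOP) and TRIB3. In promoters of mammalian chaperone genes the best known sites of this response are the ER stress response element (ERSE) and its type II form.

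These elements were looked for in RefSeq promoters of the rat assembly GRCr8, each window running from 250 bases before the annotated gene start to 50 after it. Of the 40 genes 34 had a window, and Manf, Pdia3, Pdia6, Sec61a1, Derl1 and Atf6 had none. ERSE was searched on both strands as CCAAT, 9 bases of any kind and CCACG. It was found in the windows of 8 of the 34 genes (23.5%), against 22 of all 33469 promoters in the table (0.0657%). These elements are known from promoters of chaperone genes, and the 34 windows are among all promoters counted. Their excess here is therefore not a test. The matches are shown in the direction in which they begin with CCAAT, with the fixed letters in capitals. The position is that of their leftmost base in the window, counted from the gene start. They show what the promoters of these 8 genes share.

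Hspa5, from -43: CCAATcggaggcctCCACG
Hsp90b1, from -176: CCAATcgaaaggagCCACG
Hsp90b1, from -72: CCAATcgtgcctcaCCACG
Calr, from -232: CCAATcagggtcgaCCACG
Canx, from -230: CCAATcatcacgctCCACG
Creld2, from -145: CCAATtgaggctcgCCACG
Dnajc3, from -133: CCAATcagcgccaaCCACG
Derl3, from -154: CCAATaaggaagtcCCACG
Xbp1, from -65: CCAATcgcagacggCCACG

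Genes that were higher in AAV-VEGF-B hearts (Hspa5, Creld2, Dnajc3) and genes that did not pass the test (Hsp90b1, Calr, Canx, Xbp1) both carried such a match, and Derl3 carried one while its probe was below background. The type II form, ATTGG, 1 base and CCACG, was found in 3 of the 34 windows (8.82%), against 17 of all promoters (0.0508%).

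Hyou1, from -188: ATTGGcCCACG
Hyou1, from -88: ATTGGgCCACG
Dnajb11, from -10: ATTGGcCCACG
Herpud1, from -124: ATTGGgCCACG

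The core of the unfolded protein response element, TGACGTGG, was found in the window of Hyou1 alone among the 34 (2.94%), where it overlaps the type II match at -188, and in 199 of all promoters (0.595%). Of the 10 called genes with a window 4 held any of these motifs (40%), and of the 15 tested genes that were not called 5 did (33.3%), so called and other genes both held matches. The windows of the 4 called chaperones with a match and of Herpud1, which has a match and did not pass the test, are printed whole with the matches in capitals. They are read on the strand of the gene, from 5′ to 3′.

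Hspa5, chr3:38452766-38453065, plus strand: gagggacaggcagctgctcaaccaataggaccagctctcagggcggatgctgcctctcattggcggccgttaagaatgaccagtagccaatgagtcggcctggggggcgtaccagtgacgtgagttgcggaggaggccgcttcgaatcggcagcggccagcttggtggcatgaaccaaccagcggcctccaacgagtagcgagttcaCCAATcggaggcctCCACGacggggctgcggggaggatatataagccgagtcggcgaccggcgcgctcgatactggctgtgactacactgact
Creld2, chr7:121789134-121789433, plus strand: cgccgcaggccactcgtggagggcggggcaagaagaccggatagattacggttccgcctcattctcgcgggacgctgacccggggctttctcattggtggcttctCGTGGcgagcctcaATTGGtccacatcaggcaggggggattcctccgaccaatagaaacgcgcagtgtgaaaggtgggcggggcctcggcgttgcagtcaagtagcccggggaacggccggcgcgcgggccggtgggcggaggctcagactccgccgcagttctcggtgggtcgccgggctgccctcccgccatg
Dnajc3, chr15:102432417-102432716, plus strand: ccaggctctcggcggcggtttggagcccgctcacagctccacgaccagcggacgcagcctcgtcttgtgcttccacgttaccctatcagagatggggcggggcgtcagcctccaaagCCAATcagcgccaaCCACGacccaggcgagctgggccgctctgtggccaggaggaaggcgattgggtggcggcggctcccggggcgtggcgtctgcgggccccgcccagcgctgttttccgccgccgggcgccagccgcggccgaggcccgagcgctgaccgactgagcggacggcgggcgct
Dnajb11, chr11:91672751-91673050, minus strand: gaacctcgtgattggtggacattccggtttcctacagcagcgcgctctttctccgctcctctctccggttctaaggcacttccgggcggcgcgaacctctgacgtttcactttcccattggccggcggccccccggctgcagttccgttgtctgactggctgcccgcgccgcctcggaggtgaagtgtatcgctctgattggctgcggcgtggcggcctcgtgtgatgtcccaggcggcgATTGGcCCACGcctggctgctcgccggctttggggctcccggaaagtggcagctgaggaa
Herpud1, chr19:10614658-10614957, minus strand: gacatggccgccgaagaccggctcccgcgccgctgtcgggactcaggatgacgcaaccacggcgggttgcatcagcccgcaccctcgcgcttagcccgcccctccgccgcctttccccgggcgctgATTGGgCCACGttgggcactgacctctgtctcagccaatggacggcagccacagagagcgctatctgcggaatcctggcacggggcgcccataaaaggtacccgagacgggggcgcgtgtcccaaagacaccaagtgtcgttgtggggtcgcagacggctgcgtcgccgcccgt

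Over all 12 hearts 12 of the 28 tested genes were higher in AAV-VEGF-B hearts (42.9%) and 0 were lower. Of all tested probes 4.17% were higher and 1.03% were lower. As the list was chosen with earlier results known, these shares describe it and are not an independent test. The median change of the 28 genes was 0.32, against -0.02 over all tested probes. A change above 0 was measured for 27 of the 28 genes, all but Ssr1, against 43.8% of all tested probes. Of the 28 genes 20 were higher at an unadjusted p under 0.05 and 0 were lower, against 10.6% and 9.38% of all tested probes. By role the called genes were 7 of 10 chaperones, 3 of 6 disulfide isomerases, 2 of 6 genes of the translocon and signal peptidase, 0 of 3 genes of ER-associated degradation and 0 of 3 stress factors. In the last of these roles 1 of 3 genes had an unadjusted p under 0.05 and none was lower, and the same counts held for ER-associated degradation. For 9 of the 28 genes the vectors did not overlap, with every AAV-VEGF-B heart above every AAV-HSA heart, which was the case for 2.96% of all tested probes. Each heart is taken as 1 rat from its label, and p-values set the change against the spread between these hearts. In the comparison of all 12 hearts this spread includes the difference between the strata.

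**Figure D1:**
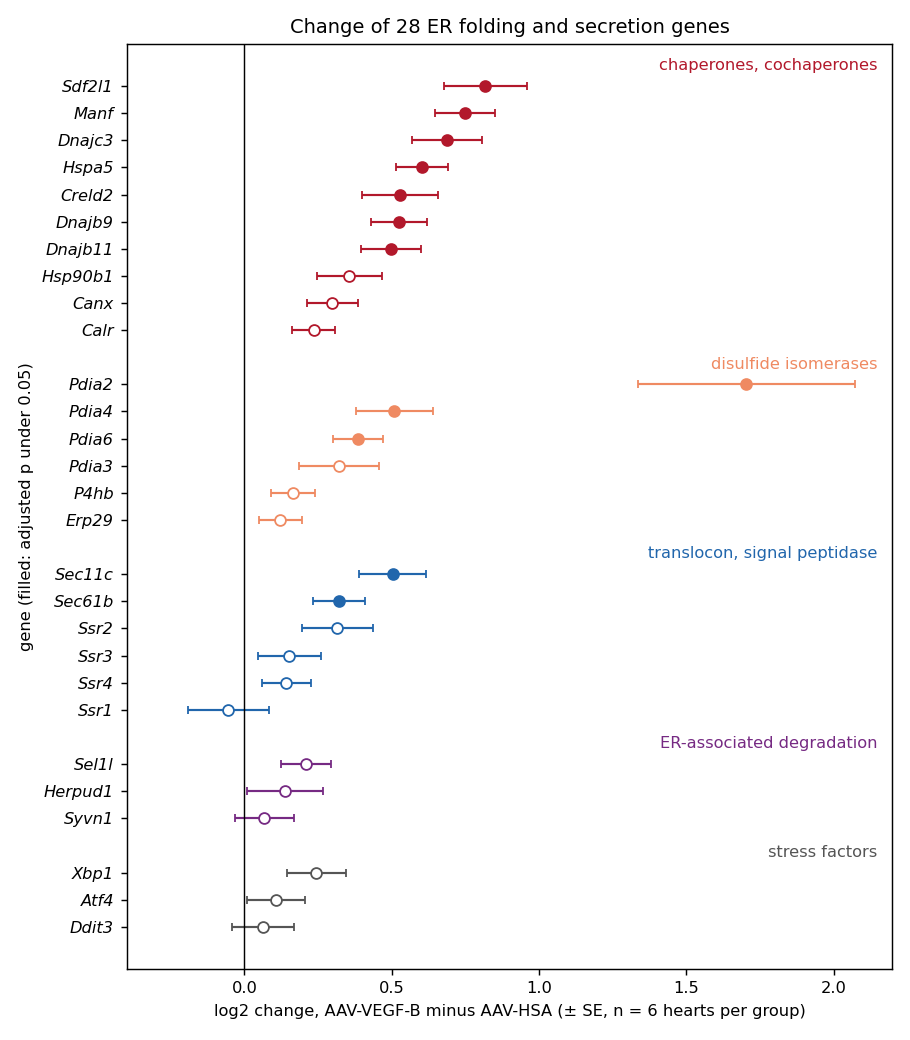
Log2 change of each of the 28 tested genes (x axis, AAV-VEGF-B minus AAV-HSA, point and SE, 6 hearts per vector), ordered by role on the y axis, with filled points for an adjusted p under 0.05. The 10 chaperones lie between 0.24 and 0.82, Pdia2 stands far to the right at 1.70, and all points but that of Ssr1 lie above 0.

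The chaperones held the most called genes of the 5 roles. Hspa5 encodes BiP, the Hsp70 chaperone of the ER and a buffer of the stress sensors. Its log2 signal ran from 12.94 to 13.22 with a median of 13.14 in AAV-HSA hearts, and from 13.45 to 13.88 with a median of 13.76 in AAV-VEGF-B hearts. The groups did not overlap, and the lowest AAV-VEGF-B heart was a male. The change was 0.60 (SE 0.09, n = 6 hearts per vector, limma adjusted p = 0.00087), or 1.52-fold.

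BiP works with cochaperones of the DnaJ family, and all 3 that belong to this set were higher. Other DnaJ genes of the ER were placed in other lists and are not counted here. Dnajc3 encodes p58IPK, a DnaJ protein that also inhibits PERK and related kinases. Its signal ran from 9.45 to 9.85 (median 9.63) in AAV-HSA hearts and from 10.07 to 10.79 (median 10.24) in AAV-VEGF-B hearts, a change of 0.69 (SE 0.12, limma adjusted p = 0.0031). Dnajb9, or ERdj4, which holds BiP on the sensor IRE1, ran from 9.32 to 9.75 (median 9.45) and from 9.83 to 10.24 (median 10.05), a change of 0.52 (SE 0.10, limma adjusted p = 0.0045). Dnajb11, or ERdj3, a cochaperone that is also secreted, ran from 8.07 to 8.48 (median 8.30) and from 8.54 to 9.05 (median 8.78), a change of 0.50 (SE 0.10, limma adjusted p = 0.0092). For all 3 genes the vector groups did not overlap, and the highest AAV-VEGF-B heart was a female.

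Small ER proteins that are induced with BiP in stressed cells were also higher. Manf, a secreted factor of the ER lumen that binds BiP, ran from 9.63 to 9.96 (median 9.76) in AAV-HSA hearts and from 10.22 to 10.76 (median 10.53) in AAV-VEGF-B hearts. Its change of 0.75 (SE 0.10, limma adjusted p = 0.00063) had the smallest p of the 28 genes, and the groups did not overlap. Sdf2l1, which acts in a complex with ERdj3, ran from 5.72 to 6.53 (median 6.34) and from 6.63 to 7.35 (median 7.15). This was a change of 0.82 (SE 0.14, limma adjusted p = 0.0029) without overlap, although the probe was dim and above background in 5 of 6 AAV-HSA hearts. Creld2, an ER protein with a disulfide isomerase activity, ran from 7.32 to 7.89 (median 7.59) and from 7.74 to 8.47 (median 8.16), a change of 0.53 (SE 0.13, limma adjusted p = 0.026). Here the groups overlapped, and 4 of the 6 AAV-VEGF-B values exceeded every control. The call of Creld2 was lost without AAV-HSA 4, 5 or 6 or AAV-VEGF-B 1, 3 or 5, with an adjusted p of up to 0.061.

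The chaperones that did not pass were Hsp90b1, Canx and Calr. Hsp90b1 encodes GRP94, the Hsp90 of the ER. Its change was 0.36 (SE 0.11, limma adjusted p = 0.072), and 5 of the 6 AAV-VEGF-B values (10.996 to 11.67) exceeded every control (10.92 to 11.20). Without AAV-VEGF-B 2, the heart with the lowest value of its group at 10.996, it passed (adjusted p = 0.011). Canx, for calnexin, and Calr, for calreticulin, encode the lectin chaperones that hold glycoproteins during folding. The change was 0.30 for Canx (SE 0.09, limma adjusted p = 0.062, and 0.035 without AAV-VEGF-B 3) and 0.24 for Calr (SE 0.07, limma adjusted p = 0.075). Calr was among the 9 genes without overlap, at 12.72 to 13.002 in AAV-HSA and 13.02 to 13.14 in AAV-VEGF-B hearts. Under other processing these genes were also called. With the stratum as a block Hsp90b1 passed (adjusted p = 0.047), and without background correction all 3 did (adjusted p = 0.038 for Hsp90b1, 0.029 for Canx and 0.021 for Calr), so their side of the threshold is not settled. All 10 tested chaperones had an unadjusted p under 0.05 and a change above 0.

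**Figure D2:**
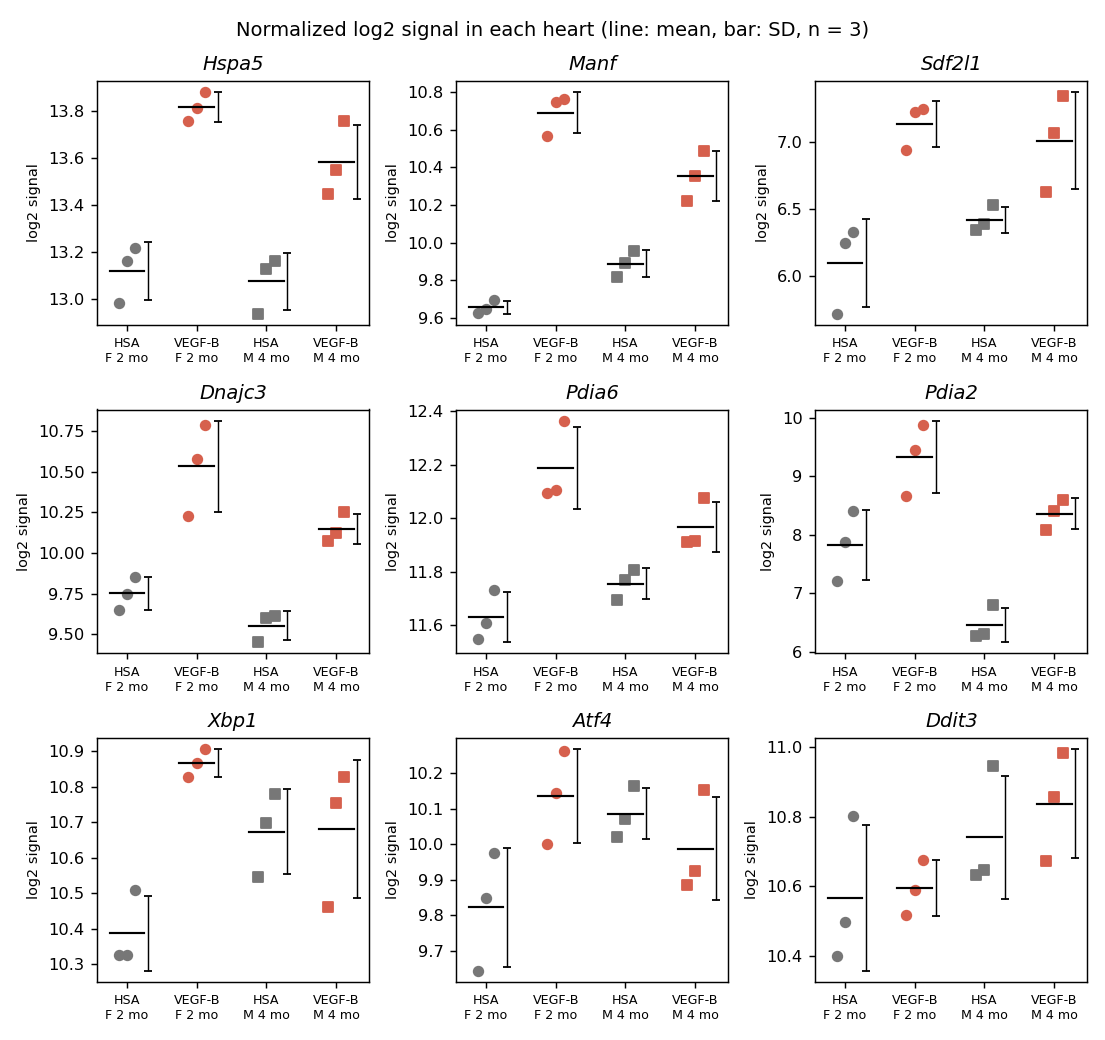
Normalized log2 signal (y axis) of 9 genes in each of the 12 hearts by vector and stratum (x axis, circles for females after 2 months, squares for males after 4 months), with the mean and SD of 3 hearts. Hspa5, Manf, Sdf2l1, Dnajc3 and Pdia6 separate the vectors in both strata, Pdia2 differs by vector and by stratum, Xbp1 and Atf4 separate the vectors in the females only, and Ddit3 overlaps throughout.

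Pdia2 had the largest change of the 28 genes. It encodes a protein disulfide isomerase known best from the pancreas. Its log2 signals were 7.22, 7.88 and 8.40 in AAV-HSA females and 9.46, 9.89 and 8.66 in AAV-VEGF-B females. In the males they were 6.31, 6.80 and 6.27 with AAV-HSA and 8.42, 8.08 and 8.60 with AAV-VEGF-B. Within each stratum the vectors did not overlap, but AAV-VEGF-B 4, a male at 8.08, lay below AAV-HSA 6, a female at 8.40. The change was 1.70 (SE 0.37, limma adjusted p = 0.013), 3.26-fold, and it was 1.503 (SE 0.31, adjusted p = 0.023) in the females and 1.90 (SE 0.31, adjusted p = 0.015) in the males. It was the only gene of the 28 to be called in the males.

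Pdia2 was also the only gene of the 28 that differed between the strata over both vectors, with a level in the males 1.17 below that in the females (SE 0.22, limma adjusted p = 0.027). Of all tested probes 1.06% were called in this comparison, in either direction. This call was lost without AAV-HSA 1 or 5 or AAV-VEGF-B 1, 2 or 4, and when dim probes were kept in the test. Other genes of the exocrine pancreas were not called. Of 20 pancreatic markers with a probe 14 were above background on none of the 12 arrays, Prss2, Pnlip and Amy2a3 among them. Of the 4 that were tested 0 were called between the vectors or between the strata, and over the 12 hearts 0 had an unadjusted p under 0.05 between the vectors. In the females alone the change was 0.34 for Ctrl, a chymotrypsin-like protease, and -0.38 for the carboxypeptidase Cpa1 (limma adjusted p = 0.12 and 0.15). Between the strata Ctrl read 0.24 higher in the males (limma adjusted p = 0.16). The summed linear level of the 4 tested genes ran from 196 to 232 in AAV-VEGF-B hearts and from 215 to 239 in AAV-HSA hearts. Together these 4 probes were dim, and the processing makes changes of dim probes smaller. The source of the Pdia2 signal was not tested.

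The isomerases Pdia6 and Pdia4 were higher as well. Pdia6, which also damps the sensors IRE1 and PERK, ran from 11.55 to 11.80 in AAV-HSA and from 11.91 to 12.36 in AAV-VEGF-B hearts without overlap, a change of 0.39 (SE 0.09, limma adjusted p = 0.016). Pdia4, or ERp72, ran from 7.19 to 7.94 and from 7.94 to 8.53, a change of 0.51 (SE 0.13, limma adjusted p = 0.034). AAV-HSA 6, at 7.19, was the lowest control, the others reading 7.65 to 7.94, and 5 of the 6 AAV-VEGF-B values exceeded every control. The call of Pdia4 was lost without any 1 of AAV-HSA 4, 5 and 6 and AAV-VEGF-B 1, 3, 4 and 5 and when dim probes were kept (adjusted p of up to 0.081). The other isomerases did not pass the test. The value was 0.32 for Pdia3, or ERp57, the partner of calnexin and calreticulin (SE 0.14, limma adjusted p = 0.20), 0.17 for P4hb, the prototype isomerase (SE 0.07, adjusted p = 0.23), and 0.12 for Erp29, a relative without isomerase activity (SE 0.07, adjusted p = 0.37).

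Of the entry machinery, Sec11c and Sec61b were called. Sec11c encodes a catalytic subunit of the signal peptidase. Its signals ran from 10.71 to 11.19 in AAV-HSA hearts and from 11.16 to 11.72 in AAV-VEGF-B hearts, a change of 0.50 (SE 0.11, limma adjusted p = 0.017). The groups overlapped through AAV-HSA 6, at 11.19, and 4 of the 6 AAV-VEGF-B values exceeded every control. Sec61b, a small subunit of the translocon, ran from 8.72 to 9.19 and from 9.25 to 9.52, a change of 0.32 (SE 0.09, limma adjusted p = 0.047) without overlap. This call was the closest to the threshold and was lost without any 1 heart other than AAV-HSA 2, with an adjusted p of up to 0.094. The 4 subunits of the translocon-associated protein complex, Ssr1 to Ssr4, did not pass, with changes of -0.05 (SE 0.14), 0.32 (SE 0.12), 0.15 (SE 0.11) and 0.14 (SE 0.08) and adjusted p-values from 0.14 to 0.86. Ssr1 gave a change above 0 after median scaling (0.09) and without AAV-HSA 3, AAV-HSA 5 or AAV-VEGF-B 3, so its sign is not settled.

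No gene of ER-associated degradation passed the test. Herpud1, an organizer of the degradation complex, gave 0.14 (SE 0.13, limma adjusted p = 0.60), with signals from 11.39 to 12.18 in AAV-HSA and from 11.86 to 12.45 in AAV-VEGF-B hearts. Sel1l, the adaptor of the ubiquitin ligase, gave 0.21 (SE 0.08, adjusted p = 0.18), and Syvn1, the ligase HRD1 itself, gave 0.07 (SE 0.10, adjusted p = 0.75). The vector groups overlapped for all 3.

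The transcription factors of the stress response were likewise not called over the 12 hearts. Xbp1 ran from 10.33 to 10.78 in AAV-HSA hearts and from 10.46 to 10.91 in AAV-VEGF-B hearts, a change of 0.24 (SE 0.10, limma adjusted p = 0.18). The array reads the level of the Xbp1 transcript and not its splicing by IRE1. Atf4, which is set mostly by translation, ran from 9.64 to 10.16 and from 9.89 to 10.26 (change 0.11, SE 0.10, adjusted p = 0.58). Ddit3, for the factor CHOP, ran from 10.40 to 10.95 and from 10.52 to 10.98 (change 0.06, SE 0.11, adjusted p = 0.79). Trib3, a target and inhibitor in the same branch, stayed below background on all arrays, and Atf6 was above background in AAV-HSA 5 and AAV-VEGF-B 5 only.

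**Figure D3:**
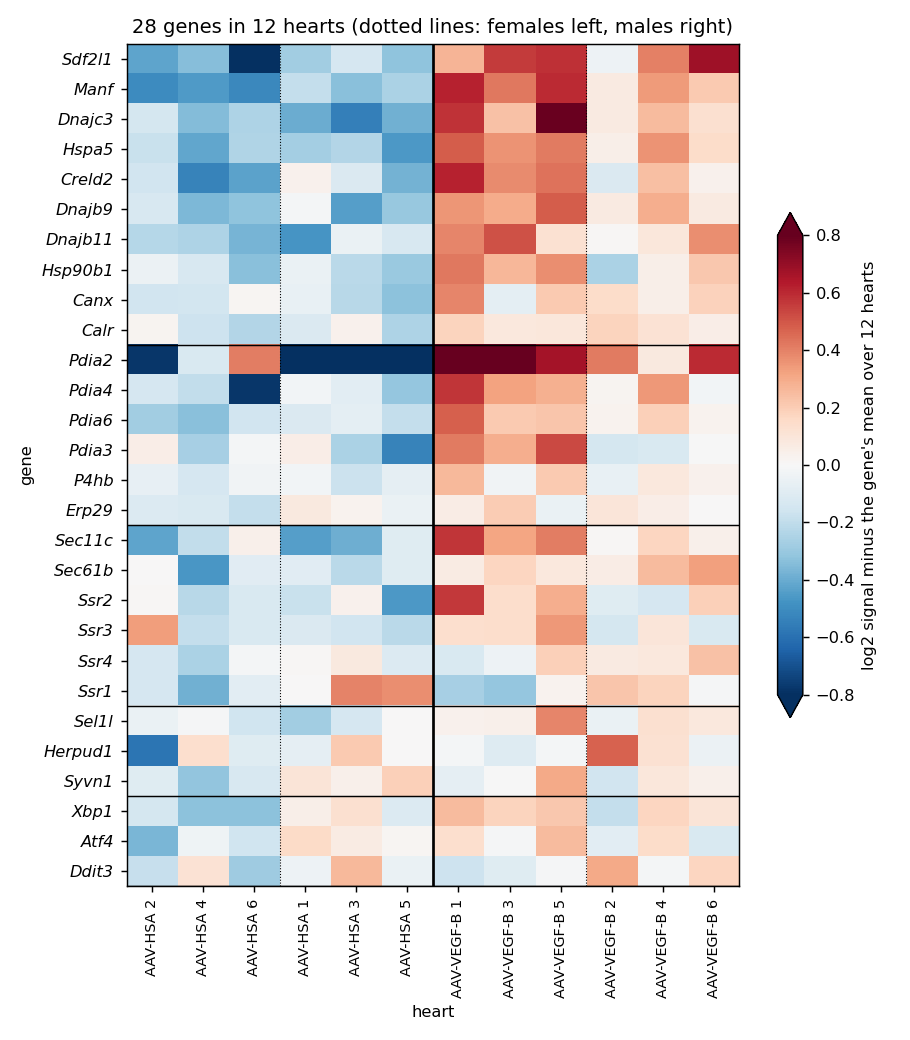
Log2 signal of the 28 tested genes (y axis, grouped by role) in the 12 hearts (x axis) as the difference from the mean of the gene, in red above and in blue below it, with colours saturated at 0.8. AAV-VEGF-B females are the reddest columns for the chaperones, AAV-VEGF-B 2 is the palest of its group, and in the lower rows, of degradation and stress factors, the vectors are less apart, although the 3 highest values of Xbp1 are those of the AAV-VEGF-B females.

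A summary over the 28 genes separated the vectors heart by heart. Relative to the mean of each gene over the 12 hearts, the median of the 28 genes lay from -0.24 to -0.06 in the 6 AAV-HSA hearts and from 0.02 to 0.31 in the 6 AAV-VEGF-B hearts. Between 2 and 10 of the 28 genes were above their own mean in an AAV-HSA heart, and between 17 and 25 in an AAV-VEGF-B heart. The 3 AAV-VEGF-B females, at 0.19 to 0.31, lay above the 3 AAV-VEGF-B males, at 0.02 to 0.12, of which AAV-VEGF-B 2 was the lowest. Over all tested probes the same median stayed between -0.01 and 0.01 in every heart. Quantile normalization gives all arrays the same distribution and so holds that median near 0, which makes it no contrast. The summary restates the changes of a list chosen with earlier results known and is not a further test.

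In the females 13 of the 28 genes were higher and 0 were lower, against 2.53% of all tested probes higher and 0.788% lower. They were the called genes above without Sec61b, and with Hsp90b1 (0.52, SE 0.13, limma adjusted p = 0.048) and Xbp1 (0.48, SE 0.12, limma adjusted p = 0.042). In the males 1 of the 28 genes was higher, Pdia2, and 0 were lower, against 0.749% and 0.0389% of all tested probes. A further 9 genes of the 28 had an unadjusted p under 0.05 in the males, all higher, so that 10 of 28 were below it, against 6.93% of all tested probes in that direction. The median change of the 28 genes was 0.46 in the females and 0.20 in the males, against -0.03 and -0.02 for all tested probes. The 3 hearts of each vector did not overlap for 21 of the 28 genes in the females and for 12 in the males, with AAV-VEGF-B higher, as for 11.1% and 9.56% of all tested probes. The counts depended on single hearts. In the females 8 genes were called without AAV-HSA 2, 7 without AAV-HSA 4, 8 without AAV-HSA 6, 5 without AAV-VEGF-B 1, 8 without AAV-VEGF-B 3 and 8 without AAV-VEGF-B 5. In the males 0 genes were called without any 1 of the 6 male hearts, and 2 were called without AAV-VEGF-B 3 or 5.

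The difference between the strata was tested itself. For 0 of the 28 genes did the change differ between females and males at an adjusted p under 0.05 (limma, interaction term), and the share of all tested probes was 0%. At an unadjusted p under 0.05 there were 6 genes (21.4%), all with the larger change in the females, against 5.27% of all tested probes. These were Manf, Creld2, Pdia6, Syvn1, Xbp1 and Atf4, each with an adjusted p of 0.94. Over the 28 genes the change was larger in the females for 23 (82.1%), against 48.8% of all tested probes. The 28 genes were read in the same hearts, so neither count is made of separate observations. Most of the probes set beside them were not called between the vectors. In simulated data the interaction fit recovered 4 of 100 planted differences of 0.5 and 57 of 100 of 1. The absence of calls therefore does not show that the changes were equal.

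Manf and Xbp1, of these 6 genes, are given heart by heart. Manf read 9.65, 9.69 and 9.63 in AAV-HSA females and 10.76, 10.57 and 10.75 in AAV-VEGF-B females, a change of 1.03 (SE 0.10, limma adjusted p = 0.00051). In the males it read 9.96, 9.82 and 9.89 with AAV-HSA and 10.22, 10.49 and 10.35 with AAV-VEGF-B, a change of 0.46 (SE 0.10, limma adjusted p = 0.058). The vectors were thus apart in both strata, with higher controls and lower AAV-VEGF-B values in the males. Xbp1 read 10.51, 10.33 and 10.33 in AAV-HSA females and 10.91, 10.83 and 10.87 in AAV-VEGF-B females. In the males it read 10.70, 10.78 and 10.54 with AAV-HSA and 10.46, 10.83 and 10.75 with AAV-VEGF-B, a change of 0.01 (SE 0.12, limma adjusted p = 0.99). Its vector groups were apart in the females and overlapped in the males, and the difference between the strata of -0.47 (SE 0.16) had an unadjusted p of 0.013 in limma and did not pass after adjustment.

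**Figure D4:**
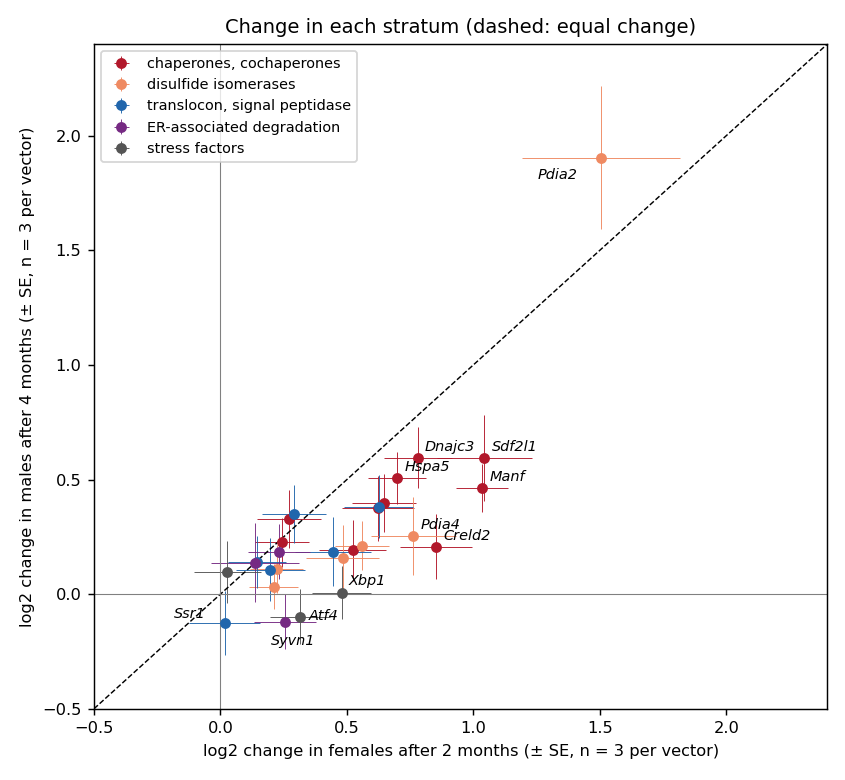
Log2 change (AAV-VEGF-B minus AAV-HSA, with SE, 3 hearts per vector) in females after 2 months (x axis) against that in males after 4 months (y axis) for the 28 genes, coloured by role. For 23 genes the point lies below the dashed line of equal change, and Pdia2, at 1.503 and 1.90, lies above it.

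Other lists of secretory genes gave lower shares. These lists and the ER set above were all chosen with results of these data known. The further ER folding genes are also those left outside that set. The lower shares therefore describe the lists and are not a test of the set against them. Of all tested probes 4.17% were higher and 1.03% lower. Of 26 further ER folding genes 4 were higher and 0 lower, with a median change of 0.11. They were the collagen-folding prolyl isomerase Fkbp10 (0.57, SE 0.08, limma adjusted p = 0.00056), the calcium-binding proteins Nucb2 (0.41, SE 0.09) and Rcn1 (0.53, SE 0.11), and Serp1, which stabilizes membrane proteins at the translocon (0.37, SE 0.09). Of 20 genes of N-glycosylation 4 were higher and 0 lower, all of them of the oligosaccharyltransferase that adds glycans to nascent chains: Ostc (0.46, SE 0.08), Tusc3 (0.43, SE 0.08), Rpn1 (0.31, SE 0.08) and Ddost (0.27, SE 0.07). Serp1 and Ddost were named after their values were seen. Of 11 genes of signal recognition and targeting 1 was higher, the translocating chain protein Tram1 (0.25, SE 0.07), and 0 were lower. With 1 call among 11 genes this list cannot be told apart from the share of all tested probes. The call of Rpn1 was lost without any 1 heart other than AAV-HSA 1, AAV-HSA 2 and AAV-VEGF-B 5, that of Tram1 without any other than AAV-HSA 5, and that of Ddost without any other than AAV-HSA 5 and AAV-VEGF-B 3. That of Serp1 was lost without AAV-HSA 2, 3, 4 or 6 or AAV-VEGF-B 1 or 2. The adjusted p-values of these 4 genes without 1 heart went up to 0.083, 0.091, 0.10 and 0.069 in that order.

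The lists of stress genes outside the 28 held 0 or 1 called genes each over the 12 hearts. Of all tested probes 4.17% were called higher and 1.03% lower. In lists this short such counts do not show that the stress branches were unchanged. Of 14 stress sensors and regulators 0 were called in limma over the 12 hearts, and 0 had an unadjusted p under 0.05. Among them the change was -0.06 for Eif2ak3, which encodes the sensor PERK (SE 0.09, limma adjusted p = 0.77), and 0.01 for Atf3, a factor downstream of ATF4 (SE 0.14, adjusted p = 0.99). Of 10 tested targets of ATF4 1 was higher, Ddit4 (1.02, SE 0.20, limma adjusted p = 0.0082), a gene known also as a target of hypoxia and glucocorticoids, and 0 were lower. Chac1, a target of ATF4 and CHOP, gave -0.04 (SE 0.11, adjusted p = 0.86). Of 16 further genes of ER-associated degradation 0 were called, with 2 higher at an unadjusted p under 0.05. Of 16 cytosolic heat shock genes 0 were called and 0 had an unadjusted p under 0.05 over the 12 hearts. In the females alone 3 of the 14 sensors and regulators, 3 of the 10 targets of ATF4 and 3 of the 16 heat shock genes were higher at an unadjusted p under 0.05, with 0 called in limma, against 10% of all tested probes. The largest of these changes were 0.53 for the factor Creb3l2 (SE 0.20, adjusted p = 0.18), 0.99 for Ddit4 (SE 0.29, adjusted p = 0.079) and 0.66 for Hsp90aa1, the inducible cytosolic Hsp90 (SE 0.27, adjusted p = 0.20).

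**Figure D5:**
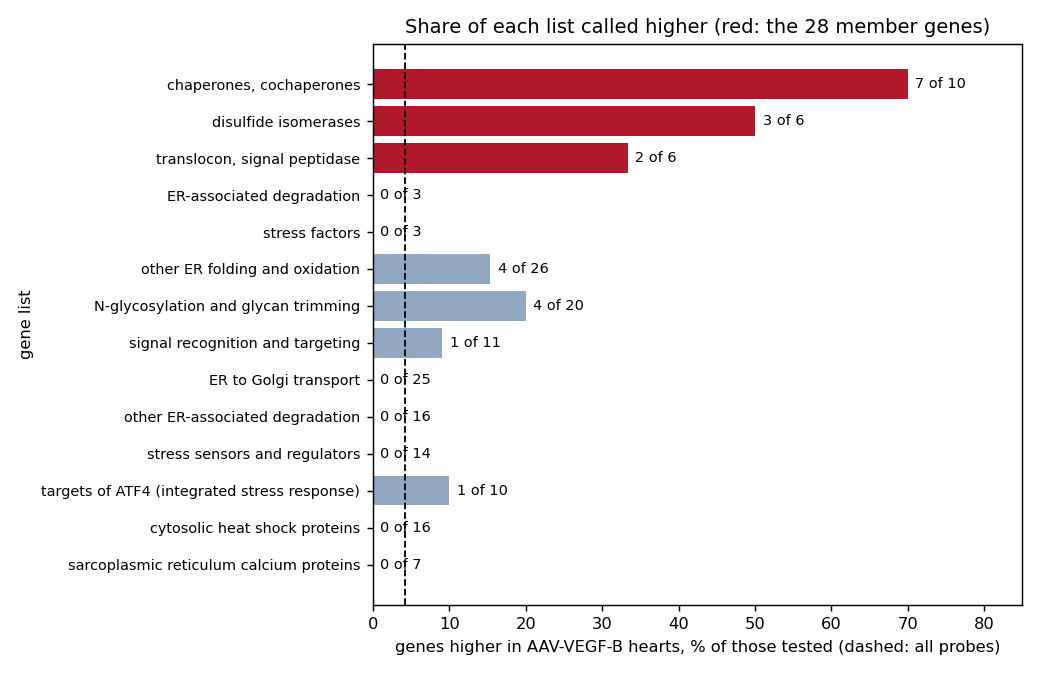
Share of each gene list called higher in AAV-VEGF-B hearts (x axis, percent of the tested genes, with counts beside the bars) for the 5 roles of the 28 genes in red and for 9 other lists in blue. The dashed line marks the 4.17% of all tested probes, and the chaperones, at 7 of 10, hold the longest bar. All lists were chosen with earlier results of these data known, so the bars are not a test of one list against another.

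Markers of endothelial cells and of smooth muscle and pericytes moved with the vector too. Of all tested probes 4.17% were higher and 1.03% lower over the 12 hearts. The other marker lists held 0 or 1 called genes each over these hearts, counts too small to be set apart from that share. Of 14 endothelial markers 8 were higher, and their summed linear level ran from 12986 to 15943 in AAV-VEGF-B hearts and from 9139 to 11541 in AAV-HSA hearts, without overlap. Mural cell markers (smooth muscle and pericyte) were higher for 4 of 8, and their sums overlapped at 24832 to 27417 and 22839 to 26436. Of 14 fibroblast markers 1 was higher, the fibrillar collagen Col5a2 (0.33, SE 0.08), and of 15 cardiomyocyte markers 0 were called, with sums of 307449 to 335939 and 316301 to 339767. Of 10 macrophage and leukocyte markers 1 was higher, Aif1 (0.52, SE 0.13), and their median change was 0.43 in the females and 0.07 in the males, where the endothelial markers had medians of 0.48 and 0.44. In the females 2 of these 10 macrophage and leukocyte markers were called higher in limma and 0 lower, against 2.53% and 0.788% of all tested probes. At an unadjusted p under 0.05 in the females 5 of the 10 were higher and 0 lower, against 10% of all tested probes higher. In the males 0 of them were called and 0 had an unadjusted p under 0.05. The macrophage sums overlapped at 1502 to 2379 and 1251 to 1846. Of 6 red blood cell markers 1 was higher, Ahsp (1.15, SE 0.29, limma adjusted p = 0.030), which binds alpha globin, and their sums overlapped at 77552 to 90521 and 69257 to 92070. Of 5 adipocyte markers 0 were called in limma and 1 was higher at an unadjusted p under 0.05, and their sums overlapped at 13156 to 15209 and 11175 to 14067. Plasma cells are rich in ER. Of 7 plasma cell and B cell markers with a probe 6 were above background on none of the 12 arrays, Mzb1 and Tnfrsf17 among them. The part of these cell types in the change of the 28 genes was not tested.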

How the data were processed

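Illumina rat bead arrays were run on left ventricular RNA of 12 Wistar rats, 1 array per heart, with 6 hearts per vector. Groups, sex and duration came from the sample labels and the repeated injection from the supporting methods. The authors deposited signal intensities from GenomeStudio without normalization, each with a detection p-value (a p-value deposited beside each signal). They also deposited log2 values, which differed by at most 0.005 from quantile-normalized log2 signals without background correction. For their own comparison the authors ran Chipster with quantile normalization, an empirical Bayes test and a false discovery rate by Benjamini-Hochberg. No background correction or probe filter before that test was found in the text read here, and their gene set analysis used unfiltered values.

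Signals from 97.1 to 45492.6, with array medians of 151.8 to 179.6, were processed with the neqc function of limma 3.58.1 in R 4.3.3 (normexp with the detection p-values, offset 16, quantile normalization, log2). The offset makes changes of dim probes smaller. A probe was kept when 3 or more arrays gave it a detection p under 0.05, and kept probes were fitted with lmFit and eBayes without covariates. Changes within strata and their difference came from a model with 4 group means. Symbols came from the platform annotation (13787 probes with 1 symbol, 8730 with none), and all 35 genes were found in RefSeq by gene identifier. Arrays correlated at 0.988 to 0.994 and no pair was identical. The number of arrays limits the precision. Steps were tested on simulated data. The genes and lists were chosen with earlier results of these data known. All 40 genes were accounted for, and full values went to called genes and to Hspa5, Hsp90b1, Pdia2, Xbp1, Atf4, Atf6, Ddit3, Trib3, Herpud1 and Dnajb9. Of each other list up to 3 called genes with the smallest p were named, and Serp1, Ddost, Eif2ak3, Atf3, Chac1 and genes given for females alone were named after their values were seen. Alternatives were other background correction, scaling, filters, the deposited log2 table, blocks, a prior trend, and each array left out. Figures were drawn with matplotlib 3.10.9.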

Additional observations from a re-analysis of the deposited data

Results flagged for a closer look

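In 56 groups of 6 hearts (28 genes in each vector group), 3 held a heart far from the others, where chance gives about 5% of groups. Sdf2l1, the partner of ERdj3, was lowest in AAV-HSA 6, with a log2 signal of 5.72. The gene was called in every fit without 1 heart. Ssr3 was highest among the controls in AAV-HSA 2, with a log2 signal of 10.17. Xbp1 was lowest among the AAV-VEGF-B hearts in AAV-VEGF-B 2, at 10.46, the heart with the lowest median of the 28 genes in its group.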

How the results depend on the processing

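The count of genes higher in AAV-VEGF-B hearts was 12, and it ran from 9 to 17 over 20 alternatives with 0 lower in each. Hspa5, Manf, Dnajb9, Dnajb11, Dnajc3 and Pdia6 were called in all 20, and Sdf2l1 in all 19 that tested it. Pdia2 and Sec11c were lost only with a replicate block (adjusted p = 0.052 and 0.055). Creld2 was called in 14, Pdia4 in 12 and Sec61b in 7. Leaving out 1 heart gave 9 to 12 genes. Hsp90b1 and Canx, which the main setting did not call, were called in 6 alternatives each and Calr in 3, and median scaling also called Pdia3, Ssr2 and Sel1l. Median scaling raised the median change of the 28 genes from 0.32 to 0.45 and that of all probes from -0.02 to 0.08, and it called 842 probes higher and 27 lower, against 429 and 106. In the males 4 genes were called without background correction, 4 with probes above background on all 12 arrays, 4 with the deposited log2 table, 4 with the prior trend, 2 with median scaling and 2 without the filter, and 0 to 2 without 1 heart. In the females, where the main count was 13, it was 5 to 13 without 1 heart. The stratum call became 0 without the filter and 0 to 1 without 1 heart. The interaction called 0 genes in each alternative run. The change of Ssr1, -0.05, turned to 0.085 with median scaling, to 0.019 without AAV-HSA 3, to 0.014 without AAV-HSA 5 and to 0.0020 without AAV-VEGF-B 3, and without 1 heart it ran from -0.14 to 0.019. The cause was not tested. The replicate numbers did not pair the hearts: same-numbered hearts were of opposite sex, their deviations correlated at -0.19 to -0.05, and the fit with the replicate block called 9 of the 12 genes. A slide block and a second probe per gene could not be run, since the columns name no slide and no other probe of these genes was tested.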

Other observations

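Transport from the ER onward was measured with 25 genes of the COPII and COPI coats, cargo receptors and fusion proteins. Of these 0 were called in limma, although 8 were up and 1 was down at an unadjusted p under 0.05, against 1093 and 964 of the 10281 tested probes. Of all tested probes 4.17% were called higher and 1.03% lower. The median over the 25 was a change of 0.09. Of 10 genes that modify or hold collagen in the ER 2 were higher and 0 lower: the lysyl hydroxylase Plod1 (0.49, SE 0.08, limma adjusted p = 0.0021) and the collagen-binding protein Sparc (0.71, SE 0.15, limma adjusted p = 0.010). Neither gene overlapped between the vectors, with AAV-VEGF-B higher, as for 2.96% of all tested probes. Both were named because they were called, so this lack of overlap adds no separate support. Of 7 calcium proteins of the sarcoplasmic reticulum, the specialised ER of muscle, 0 were called in limma and 0 had an unadjusted p under 0.05, and the median change was -0.12.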
